A study of Mus musculus with 107 samples.

Results

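The comparison described here set 16 single eggs of mos -/- mice, named M2, against 24 wildtype eggs, all of the second sequencing batch. The M2 eggs were those numbered 3 to 18, with 8 on plate 1 and 8 on plate 2, and the wildtype eggs were those numbered 28 to 51, all on plate 3. Eggs under 10000 counts were to be dropped, and none of these 40 eggs fell under that minimum, so 40 of the 107 eggs of the series entered. The other eggs of the series were mutant eggs named M1 and M3, wildtype eggs activated with 10 mM strontium chloride for 2 h from 15 to 16 h after germinal vesicle breakdown, and the eggs of batch 1.

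Each library came from 1 egg. Its RNA was copied to cDNA by Smart-seq2, which primes on poly(A) tails, and the values were read counts per gene. Donors were C57BL/6J females of 2 to 3 months, wildtype or mos -/-, given 5 IU of pregnant mare serum gonadotropin 48 h before their oocytes were taken. Oocytes of every group were held in 2.5 µM milrinone, which blocks meiotic resumption, then matured in culture without it and collected 38 to 40 h after germinal vesicle breakdown. Neither the nature of the mutation nor the meaning of M1, M2 and M3 is given in the sources used here. The deposited egg table gives a growth number of 2 to each M2 egg and of 1 to each wildtype egg, without defining it. Genotype, plate and growth number therefore cannot be told apart in these 40 eggs. No label ties an egg to an animal or a culture, so the eggs of a group were not treated as replicates.

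MOS is a kinase made in the egg from stored mRNA. It activates the kinases MEK1 and MEK2, which activate ERK1 and ERK2, and this cascade holds the egg in metaphase of the second meiotic division as the cytostatic factor. Full-grown oocytes and eggs transcribe very little, so transcript levels at this stage are known to depend on storage, polyadenylation and decay of mRNA made earlier.

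The libraries of the M2 eggs were deeper and held more genes than those of the wildtype eggs. M2 eggs held 152068 to 1551993 counts, with a median of 503732, and wildtype eggs 66826 to 630687, with a median of 207420. At an equal depth of 60000 counts, 6205 ± 1073 genes were detected in M2 eggs (SD, n = 16 eggs) and 5195 ± 610 in wildtype eggs (SD, n = 24 eggs). One M2 egg, number 14 of plate 2, stood apart with 2518 genes at that depth, and without it the M2 mean was 6451 ± 446 (SD, n = 15 eggs). The means at that depth were 6145 in M1 and 6712 in M3 eggs of batch 2. In batch 1 they were 6564 in M2 eggs (n = 2) and 6244 in wildtype eggs (n = 5). Among wildtype eggs, 9 stood apart with over 35% of their counts in their 50 most abundant genes, against a range of 16.4% to 30.1% in M2 eggs. The part of these differences in the results below was not tested, and values without those eggs are given for named genes that lost a call or turned in sign without them.

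M2 eggs differed from wildtype eggs in both directions, and more genes were higher than lower in the sums. Counts were summed over the eggs of each group and expressed as CPM, each count as a share of the total after TMM scaling. Of 13832 genes, 1412 (10.2%) were at least 2-fold higher in the M2 sums of plate 1 and of plate 2 alike, and 790 (5.71%) were at least 2-fold lower in both. This is a description of 1 sum per group and carries no test. As a mean of log2(CPM + 1) over eggs, 2443 genes passed the same fold, of which 2418 were higher and 25 lower. The split was then 99.0% higher, against 64.1% in the sums. That mean changes the scale as well as the weight of each egg, and the wildtype eggs were the shallower ones. Sums of eggs thinned to equal depth, which also weigh eggs alike, gave 696 higher and 468 lower genes, or 59.8% higher. What moved the split to 99.0% was not tested.

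The 2 M2 and 5 wildtype eggs of batch 1 took no part in the 2-fold choice of these genes. Their sums did count in the expression filter that set which genes were tested, so the choice was not wholly free of batch 1. All genes, given for comparison, passed the same filter. Of the 1412 higher genes, 71.1% were higher in M2 of batch 1, against 46.1% of all genes, and 37.1% were at least 2-fold higher, against 15.7%. Of the 790 lower genes, 63.4% were lower in batch 1, against 48.9% of all genes, and 30.4% at least 2-fold, against 12.9%. Among genes of at least 4 log2 CPM the shares were 89.4% of 463 higher genes and 80.9% of 241 lower genes, against 46.6% and 53.4% of all 6541 genes at that level. The direction seen in batch 2 was thus the more frequent direction in batch 1, for abundant genes above all. In batch 1 too, both M2 eggs and all wildtype eggs lay on different plates of the deposited egg table.

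The test used both batches. edgeR's quasi-likelihood F test was fitted to 9 sums per group and batch with a batch term, and a gene was called where M2 differed from wildtype at a Benjamini-Hochberg adjusted p under 0.05 with the same sign in batch 2. It called 626 of 13832 genes (4.53%), of which 454 were higher (3.28%) and 172 lower (1.24%). The share of higher genes among the calls was 72.5%, and it was 61.9% with RLE scaling, 61.2% with eggs thinned to equal depth and 56.8% with DESeq2. In the called higher genes the median level went from 20.6 CPM in wildtype to 53.2 in M2, and the median wildtype egg held no count in 191 of them. Wildtype eggs were the shallower ones and the median gene stood at 9.14 CPM in wildtype, so such a median is not absence. Its share over all genes was not counted. In the called lower genes the median level went from 216 to 97.3 CPM. In raw CPM the median M2 egg was below the median wildtype egg in 148 of 172. The calls used sums of these same eggs, so that count is no separate support. Its share over all genes was not counted either. No gene separated every M2 egg from every wildtype egg in either direction (0%). With M2 egg 14 left out, 1 gene did, the splicing factor Rbm17, named after its values were seen, which rose by 2.04 ± 0.25 in the fit on all eggs (log2 ± SE, edgeR adjusted p = 0.000255).

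These calls rest on the repeat of the difference across batches. On simulated sums with known changes the same fit missed many 2-fold changes and made more false calls than its threshold allows, and the calls carry that limit. Batch 2 alone, in sums per plate, gave 0 called genes and 977 at an unadjusted p under 0.05. Without the M2 sum of batch 1 the count was 161, and without that of batch 2 it was 225. All 626 genes kept their sign in every fit in which they were tested. With eggs thinned to equal depth 322 of 611 called genes were called again, and 43 of the 67 named ones. The p-values measure the spread between sums, which may be technical.

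**Figure D1:**
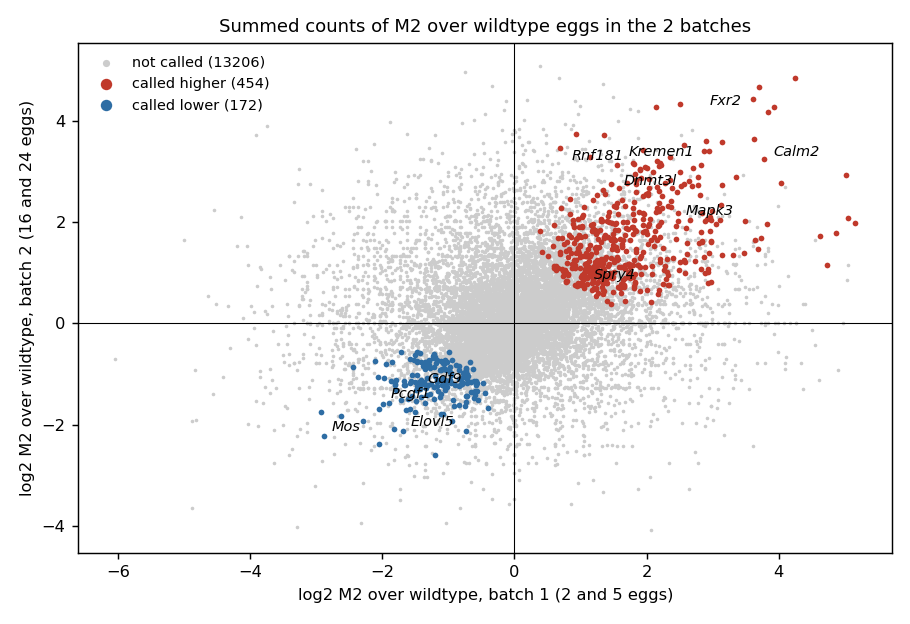
Each point is 1 of 13832 genes, placed by its log2 ratio of M2 over wildtype summed counts in batch 1 (x axis) and batch 2 (y axis). The 454 genes called higher and 172 called lower lie in the upper right and lower left, though the fit averages the difference over both batches and asks only for the same sign in batch 2.

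Within the cascade of the mutated kinase, Mos itself was lower and Mapk3, which encodes ERK1, was higher. Of 16 tested genes of the MOS and MAP kinase cascade, these were the 2 called, and the median log2 ratio of the list in batch 2 was -0.04, against 0.03 over all genes. Of all genes 3.28% were called higher and 1.24% lower, the shares to set beside each list count below. List medians below are those of batch 2 unless another source is named. Mos lies on chromosome 4 at 3870657 to 3872105 of GRCm38, on the minus strand. Per egg it held 0 to 267 raw CPM in wildtype, with a median of 0, and 0 to 78.9 in M2, with a median of 6.66. Reads were seen in 10 of 24 wildtype and 13 of 16 M2 eggs, the ranges overlapped, and 1 wildtype egg held 36% of the wildtype reads. At an equal depth of 60000 counts the order turned, with Mos reads in 8 of 24 wildtype and 4 of 16 M2 eggs. In the sums Mos stood at 37.4 CPM in wildtype and 7.76 in M2, with 6.88 on plate 1 and 8.80 on plate 2. It fell by 2.50 ± 0.56 in the fit (log2 ± SE, edgeR adjusted p = 0.0167), and the call was lost without the M2 sum of batch 1 (edgeR adjusted p = 0.22), without the wildtype sum of batch 2 (0.13) and at equal depth (0.25). The mean of log2(CPM + 1) over eggs went the other way, at 0.76 in favour of M2, against a median of 0.38 over all genes. In batch 1 both M2 eggs, at 0.251 and 1.47 raw CPM, lay below all 5 wildtype eggs, at 2.52 to 11.2. Since the allele is not described, these reads do not check the genotype.

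Mapk3 (chromosome 7, 126759601 to 126765819, plus strand) ranged from 0 to 205 raw CPM in wildtype eggs, with a median of 37.7. In M2 eggs it ranged from 0 to 540 with a median of 243, and 9 of 16 M2 eggs lay above the highest wildtype egg. The M2 egg at 0 was egg 14 of plate 2, and the groups overlapped at the low end. The sums held 72.01 CPM in wildtype and 299.5 and 279 in M2 of plates 1 and 2, a ratio of 4.09 (Poisson 95% interval 3.65 to 4.59, counting error only). Mapk3 rose by 2.25 ± 0.24 (log2 ± SE, edgeR adjusted p = 0.000101). Both M2 eggs of batch 1, at 393 and 493.3 raw CPM, lay above the wildtype eggs, at 30.1 to 113.

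Among 22 transcripts known to respond to ERK or to inhibit it by feedback, 1 was called, against 4.53% of all genes. This was Spry4, a Sprouty inhibitor of receptor tyrosine kinase signalling. It spanned 425 to 1136 raw CPM in wildtype eggs with a median of 667, and 473 to 2236 in M2 eggs with a median of 1602. The groups overlapped in 2 M2 eggs, since the other 14 of 16 lay above every wildtype egg. Spry4 rose by 0.93 ± 0.20 (log2 ± SE, edgeR adjusted p = 0.0145). Its adjusted p was 0.22 without the M2 sum of batch 1, 0.15 without that of batch 2 and 0.074 without the wildtype sum of batch 1. The list's median log2 ratio in batch 2 was -0.01.

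**Figure D2:**
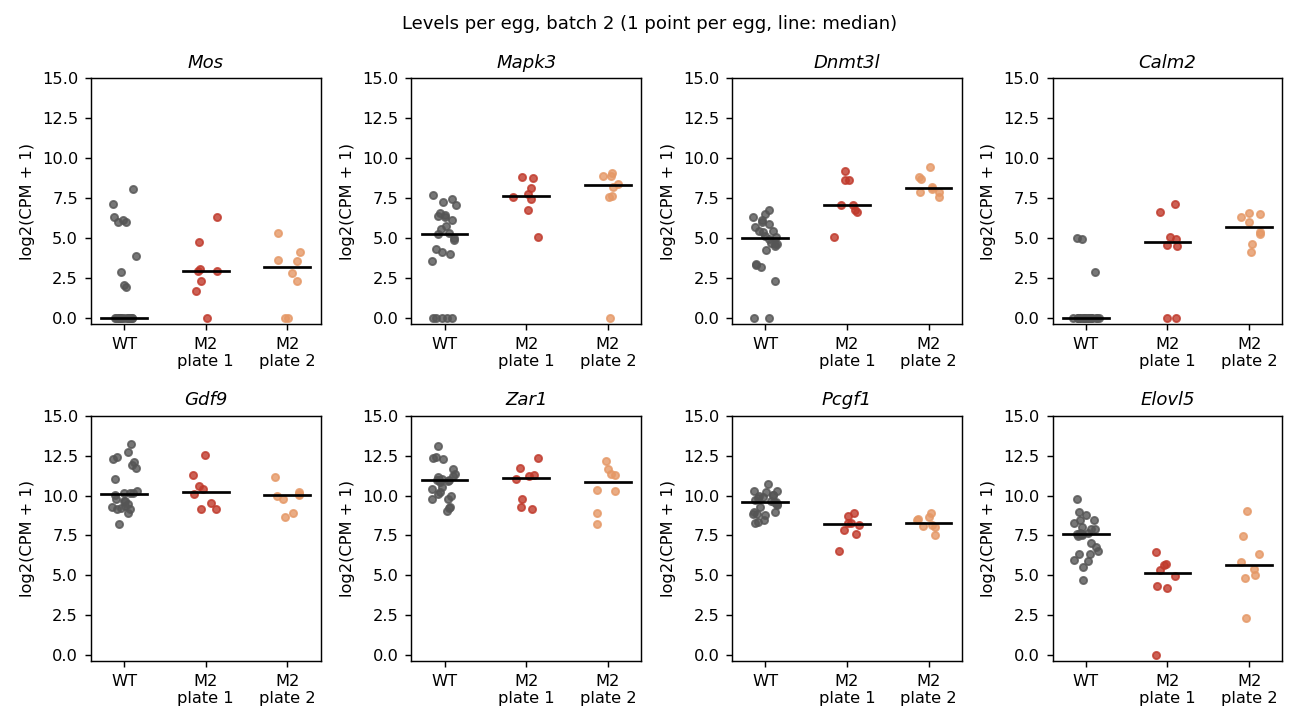
Each point is the level of 1 gene in 1 egg of batch 2, as log2(raw CPM + 1), and each line is a median over the eggs of wildtype plate 3, M2 plate 1 or M2 plate 2. Mapk3, Dnmt3l and Calm2 lie higher in M2 eggs of both plates and Pcgf1 and Elovl5 lower, while the medians of Gdf9 and Zar1 lie close together and Mos is at 0 in most wildtype eggs.

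Of the 12 genes with the largest rises on both plates, all but Rnf181 had a median of 0 in wildtype eggs, whose libraries were the shallower ones. Calm2, which encodes the calcium sensor calmodulin (chromosome 17, 87433412 to 87446935), held reads in 3 of 24 wildtype and 14 of 16 M2 eggs. Its level was 0 to 31.2 raw CPM with a median of 0 in wildtype and 0 to 138.2 with a median of 35.3 in M2, and 9 M2 eggs lay above the highest wildtype egg. The sums differed by a ratio of 10.0 (Poisson 95% interval 6.48 to 16.3), and Calm2 rose by 3.62 ± 0.42 (log2 ± SE, edgeR adjusted p = 0.000249). At equal depth it was detected in 1 wildtype and 13 M2 eggs. Calmodulin is encoded by several near-identical genes, so its counts are uncertain.

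Fxr2, an RNA-binding relative of the fragile X protein, had 3 counts in the 24 wildtype eggs and 222 in the 16 M2 eggs, a ratio of 31.05 with a counting interval of 10.5 to 152. It rose by 3.91 ± 0.48 (log2 ± SE, edgeR adjusted p = 0.000279). M6pr, the mannose 6-phosphate receptor that carries enzymes to lysosomes, had 13 and 391 counts, a ratio of 12.6 (7.29 to 23.9). Rnf181, a ubiquitin ligase, was better measured in wildtype. It spanned 0 to 74.8 raw CPM with a median of 5.43 in wildtype eggs and 47.6 to 316 with a median of 147 in M2 eggs, and 15 of 16 M2 eggs lay above every wildtype egg. Rnf181 rose by 2.42 ± 0.33 (log2 ± SE, edgeR adjusted p = 0.000603).

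Kremen1, a receptor for Wnt antagonists of the Dickkopf family, rose by 2.99 ± 0.31 (log2 ± SE, edgeR adjusted p = 8.36e-05), from 5.00 CPM in the wildtype sum to 45.9 in the M2 sum. Its wildtype eggs spanned 0 to 35.1 raw CPM and its M2 eggs 0 to 336, with medians of 0 and 28.8. The transcription factor Usf1 stood at 3.70 CPM in wildtype and 36.1 and 31.03 in M2. For Ttc33, a tetratricopeptide repeat gene, the values were 6.74, 60.5 and 55.2 CPM. Both rose, by 2.57 ± 0.37 and 2.58 ± 0.36 on the log2 scale (SE, edgeR adjusted p = 0.000603 for each).

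The calls of 4 further genes with large rises ended when 1 sum was left out. Egfr, the epidermal growth factor receptor, went from 3.48 CPM in wildtype to 56.7 and 38.95 in M2 and rose by 2.13 ± 0.52 (log2 ± SE, edgeR adjusted p = 0.0373), with 0.29 when the M2 sum of batch 2 was left out and 0.102 without the wildtype sum of batch 2. The same omissions gave edgeR adjusted p-values of 0.25 and 0.105 for the protease inhibitor Serpinb12, 0.46 and 0.20 for Nckap1l, a subunit of the WAVE actin regulator of blood cells, and 0.34 and 0.15 for the matrix protein gene Ltbp2, which stood at 0.0525 without the 9 concentrated wildtype eggs. At equal depth the edgeR adjusted p was 0.109 for Serpinb12, 0.108 for Nckap1l and 0.67 for Ltbp2, whose rise went from 2.09 to 0.81 on the log2 scale. The zinc finger gene Zfp58 was called without any 1 sum, and its adjusted p was 0.056 at equal depth.

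Among the lower genes named here, Pcgf1 had the most wildtype eggs above every M2 egg. It encodes a subunit of a variant Polycomb complex that places ubiquitin on histone H2A (chromosome 6, 83077869 to 83080855, plus strand). Wildtype eggs spanned 303 to 1664 raw CPM with a median of 780.2 and M2 eggs 91 to 481 with a median of 292. All 16 M2 eggs lay below the wildtype median, and 18 of 24 wildtype eggs lay above every M2 egg. The sums held 949.9 CPM in wildtype and 320.2 and 298 in M2, and Pcgf1 fell by 1.79 ± 0.23 (log2 ± SE, edgeR adjusted p = 0.000283).

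Elovl5, which elongates polyunsaturated fatty acids (chromosome 9, 77917364 to 77984519, plus strand), fell by 1.89 ± 0.27 (log2 ± SE, edgeR adjusted p = 0.000647). Its wildtype eggs spanned 24.6 to 866 raw CPM with a median of 189.6 and its M2 eggs 0 to 519 with a median of 40.6. The ranges overlapped, and 15 of 16 M2 eggs lay below the wildtype median. The sums were 268 CPM in wildtype, 35.5 on M2 plate 1 and 96.2 on M2 plate 2.

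Ap1m2, a subunit of the AP-1 clathrin adaptor, fell by 1.48 ± 0.24 (log2 ± SE, edgeR adjusted p = 0.00188). In its wildtype eggs the level was 41.7 to 1244 raw CPM, with a median of 213.8, and in its M2 eggs 46.03 to 514, with a median of 150.0. The medians were closer than the sums, at 588 CPM in wildtype and 147 and 197 in M2. Exosc2, a subunit of the RNA exosome, went from 39.2 CPM in wildtype to 11.6 and 4.84 in M2, with 15 of 16 M2 eggs below the wildtype median. It fell by 1.99 ± 0.40 (log2 ± SE, edgeR adjusted p = 0.00909), and its adjusted p was 0.11 without the M2 sum of batch 1 and 0.064 without that of batch 2.

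The calls of the other strongly lower genes each ended when 1 sum was left out. Tulp3, which carries receptors into cilia, fell by 1.54 ± 0.36 (log2 ± SE, edgeR adjusted p = 0.032), with 0.11 and 0.15 without the M2 sums of batches 1 and 2 and 0.22 without the wildtype sum of batch 2. The transporter Abcc1 fell by 1.25 ± 0.30 (edgeR adjusted p = 0.023), with 0.0522, 0.28 and 0.0667 under the same omissions. For Pigt, a subunit of the enzyme that attaches GPI anchors, the edgeR adjusted p went from 0.0278 to 0.20, 0.14 and 0.103, and for Rusf1 from 0.0369 to 0.23, 0.16 and 0.39, with 0.0727 without the concentrated wildtype eggs. For Tmem94 it went from 0.0232 to 0.088 and 0.20 without the M2 sums and to 0.12 without the wildtype sum of batch 1. In 3 more genes 1 wildtype egg held most of the wildtype counts of batch 2. Kdm4b, a histone H3 demethylase, had a median of 4.70 raw CPM in wildtype and 14.1 in M2 eggs, and 1 wildtype egg held 64.5% of the wildtype counts. For Relt, a receptor of the tumour necrosis factor family, 1 wildtype egg held 72.7%, and for Dgat2, which makes triglycerides, 68.9%. The mean of log2(CPM + 1) over eggs was higher in M2 for Kdm4b by 1.19, for Relt by 0.54 and for Dgat2 by 0.46. The median of that difference over all genes was 0.38. In batch 1 the median egg held 95.3 raw CPM of Kdm4b in wildtype and 26.8 in M2. For Relt these medians were 19.65 and 4.05, and for Dgat2 11.55 and 7.51. Without the M2 sum of batch 1 and without the wildtype sum of batch 2 their edgeR adjusted p-values were 0.17 and 0.0603 for Kdm4b, 0.37 and 0.21 for Relt, and 0.13 and 0.22 for Dgat2. For Dgat2 it was also 0.39 without the M2 sum of batch 2 and 0.0511 without the concentrated wildtype eggs. At equal depth the calls of 6 of these genes were lost, with log2 differences of -0.92 for Pigt, -0.94 for Relt, -0.91 for Dgat2, -0.97 for Kdm4b, -0.97 for Rusf1 and -1.89 for Tmem94 (edgeR adjusted p = 0.58, 0.54, 0.48, 0.25, 0.18 and 0.0607).

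Genes of the meiotic cell cycle were called in small numbers, from short lists. Of 23 M-phase promoting and cytostatic factors, 2 were called higher and 0 lower, against 3.28% and 1.24% of all genes. The median log2 ratio of the list in batch 2 was 0.03. Ensa encodes endosulfine alpha, which inhibits the phosphatase PP2A-B55 once Greatwall kinase has phosphorylated it. It rose by 2.27 ± 0.33 (log2 ± SE, edgeR adjusted p = 0.000617), from 0 to 43.6 raw CPM in wildtype eggs to 0 to 171 in M2 eggs, with medians of 0 and 30.3. Cdc25c, a phosphatase that activates CDK1, had 1 count in wildtype and 52 in M2, a ratio of 21.8 with a counting interval of 3.75 to 878, and its edgeR adjusted p of 0.0315 became 0.25 and 0.0822 without the M2 sums of batches 1 and 2 and 0.12 without the wildtype sum of batch 2, and 0.155 at equal depth.

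Of 20 genes of the anaphase promoting complex and its targets, 3 were called lower and 0 higher, against 1.24% and 3.28% of all genes. The list's median log2 ratio in batch 2 was -0.00 because the other members lay on both sides. Anapc2, the cullin subunit of the complex, spanned 9.29 to 408 raw CPM with a median of 177 in wildtype eggs and 0 to 285 with a median of 97.1 in M2 eggs. It fell by 1.13 ± 0.25 (log2 ± SE, edgeR adjusted p = 0.0172), with 0.25 and 0.0786 without the M2 and the wildtype sum of batch 2 and 0.11 at equal depth. Espl1, the separase that cleaves cohesin, had egg medians of 442 in wildtype and 256 in M2 and fell by 0.87 ± 0.22 (edgeR adjusted p = 0.0298), with 0.21 without either M2 sum and 0.12 without the wildtype sum of batch 2. Pttg1, which encodes securin, the inhibitor of separase, had medians of 1597 and 736 and fell by 1.09 ± 0.28 (edgeR adjusted p = 0.0347), with 0.385 without the M2 sum of batch 1 and 0.0944 and 0.12 without the wildtype sums of batches 1 and 2. Its M2 sums differed between plates, at 700.0 CPM on plate 1 and 1438 on plate 2 against 1820 in wildtype. Without the 9 concentrated wildtype eggs its adjusted p was 0.10.

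In the spindle checkpoint and kinetochore list 2 of 26 genes were called higher and 0 lower, with a median log2 ratio of 0.19. Bub3 went from 79.8 CPM in the wildtype sum to 188 and 214.4 in M2, and the checkpoint kinase Bub1 from 38.1 to 98.2 and 90.7. Both rose by 1.18 on the log2 scale, with SE of 0.23 and 0.27 (edgeR adjusted p = 0.00737 and 0.0172). Their adjusted p-values were 0.21 and 0.15 without the M2 sum of batch 2 and 0.0576 and 0.26 without that of batch 1, and for Bub1 0.0838 without the wildtype sum of batch 2 and 0.147 at equal depth. Among 29 spindle and microtubule genes 2 were higher and 1 lower, with a median of 0.18. Dync1i2, an intermediate chain of dynein, spanned 0 to 165 raw CPM in wildtype eggs with a median of 32.9 and 51.7 to 515 in M2 eggs with a median of 239.8, and rose by 2.23 ± 0.27 (log2 ± SE, edgeR adjusted p = 0.000255). The beta tubulin Tubb2a rose and Tubb3 fell, by 1.93 ± 0.40 and 0.78 ± 0.21 on the log2 scale (edgeR adjusted p = 0.0241 and 0.0382), and their adjusted p-values were 0.0913 and 0.24 without the M2 sum of batch 1 and 0.0657 and 0.0706 without the concentrated wildtype eggs. For Tubb3 they were also 0.20 and 0.17 without the M2 and the wildtype sum of batch 2. Tubulin genes are near-identical in sequence, so their counts are uncertain.

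Of 29 DNA replication genes, the GINS subunit Gins2 and the licensing factor Cdc6 were called higher, and the list's median log2 ratio was -0.19. Gins2 rose by 1.18 ± 0.28 and Cdc6 by 1.08 ± 0.29 (log2 ± SE, edgeR adjusted p = 0.0248 and 0.0427). Their adjusted p-values were 0.31 and 0.22 without the M2 sum of batch 1, 0.17 and 0.42 without that of batch 2 and 0.12 and 0.14 without the wildtype sum of batch 1. For Cdc6 they were also 0.0607 without the wildtype sum of batch 2, 0.0993 without the concentrated wildtype eggs 0.058 without M2 egg 14 and 0.13 at equal depth. None of 21 cohesin and condensin genes was called. Smc4, the most abundant of them, had egg medians of 399 raw CPM in wildtype and 254 in M2 and a log2 difference of -0.58 ± 0.26 in the fit (edgeR adjusted p = 0.243). None of 29 genes of cortical actin and cytokinesis was called, among them Cit, at -0.69 ± 0.21 (edgeR adjusted p = 0.0773).

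Transcripts typical of the oocyte were present in all 40 eggs, and a few of them were lower in M2. Of 12 markers of the oocyte itself, 3 were called lower and 0 higher, with a median log2 ratio of 0.11, and their summed egg level had a median of 7779 raw CPM in wildtype and 9299 in M2. Gdf9, a growth factor that the oocyte secretes (chromosome 11, 53431023 to 53437904, plus strand), fell by 1.36 ± 0.20 (log2 ± SE, edgeR adjusted p = 0.000829). Its wildtype eggs spanned 298 to 9722 raw CPM and its M2 eggs 410 to 5856, with medians of 1101 and 1071. The sums were 2986 CPM in wildtype and 1306 and 1064 in M2, and 1 wildtype egg held 31.8% of the wildtype counts. Raw CPM carry no TMM scaling, so these medians and sums are on different scales. Under that scaling all genes added up to 1.183e+06 CPM in the wildtype sum and 9.519e+05 in the M2 sum. In batch 1 the M2 eggs, at 189 and 597 raw CPM, overlapped the wildtype range of 391 to 1968.

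Zar1, a maternal effect gene whose protein binds stored mRNA, went the same way in the sums, from 3406 CPM in wildtype to 1273 and 1956 in M2. On the scale of raw CPM its median egg stood at 2237 in M2 and 1984 in wildtype, an order that does not carry over to the scale of the sums. Zar1 fell by 1.15 ± 0.21 in the fit (log2 ± SE, edgeR adjusted p = 0.00367), with 0.099 when the M2 sum of batch 1 was left out. It was 1 of 2 called genes among 27 of stored-mRNA masking and translational control, where Cirbp, a cold-inducible RNA-binding protein, rose by 1.31 ± 0.32 (edgeR adjusted p = 0.0247), with 0.37 and 0.199 without the M2 and the wildtype sum of batch 1 and 0.0605 without the concentrated wildtype eggs.

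Of 18 genes in the list of the zona pellucida, sperm interaction and secreted factors, 1 was called higher and 2 lower, Gdf9 and Tcl1, with a median log2 ratio of -0.08. The tetraspanin Cd9, required on the egg for fusion with sperm, had egg medians of 0 raw CPM in wildtype and 50.9 in M2 and rose by 1.70 ± 0.38 (log2 ± SE, edgeR adjusted p = 0.0162), with 0.0774 and 0.13 without the M2 sums of batches 1 and 2 and 0.0786 without the wildtype sum of batch 2. Tcl1 was placed in this list although it encodes a coactivator of the kinase AKT. It had medians of 8690 in wildtype and 4474 in M2 and fell by 1.19 ± 0.25 (edgeR adjusted p = 0.0119), with 0.19 without the M2 sum of batch 1 and 0.0673 without the wildtype sum of batch 2. Without the 9 concentrated wildtype eggs the log2 ratio in batch 2 went from -1.07 to -0.10 and the edgeR adjusted p to 0.22.

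Among 30 maternal effect and subcortical complex genes 3 were called higher and 4 lower, with a median log2 ratio of 0.12. The lower ones included Padi6, needed for the cytoplasmic lattices, with sums of 2092 CPM in wildtype and 1202 and 1345 in M2. Padi6 fell by 1.12 ± 0.25 (log2 ± SE, edgeR adjusted p = 0.0174), with 0.365 and 0.066 without the M2 and the wildtype sum of batch 1. Oas1d and Oas1h, relatives of an antiviral synthetase that the oocyte makes, fell by 0.89 ± 0.20 and 1.15 ± 0.26 (edgeR adjusted p = 0.0182 and 0.0165), with 0.28 and 0.376 without the M2 sum of batch 1. For Oas1d it was 0.12 without the concentrated wildtype eggs and for Oas1h 0.12 without the wildtype sum of batch 1. They belong to a family of similar copies, so their counts are uncertain. Dppa3, which guards maternal DNA methylation, had egg medians of 1720 raw CPM in wildtype and 989.5 in M2. It fell by 0.94 ± 0.24 (edgeR adjusted p = 0.0311), with 0.416 without the M2 sum of batch 1 and 0.0653 and 0.078 without the wildtype sums of batches 1 and 2. Without the 9 concentrated wildtype eggs its log2 ratio in batch 2 went from -0.73 to -0.02 and its adjusted p to 0.30. The higher genes, named after their values were seen, were Tle6, of the subcortical complex, Nlrp9b and Oas1c, which rose by 1.73 ± 0.38, 0.88 ± 0.21 and 0.90 ± 0.24 (log2 ± SE, edgeR adjusted p = 0.0326, 0.0248 and 0.0399). Without the M2 sums of batches 1 and 2 their adjusted p-values were 0.289 and 0.15, 0.242 and 0.294, and 0.357 and 0.216. For Tle6 it was 0.168 and for Oas1c 0.0838 without the wildtype sum of batch 2. Without the wildtype sum of batch 1 it was 0.0978 for Nlrp9b and 0.124 for Oas1c, and at equal depth 0.181 for Nlrp9b.

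Of 28 genes of deadenylation and mRNA decay, 3 were called higher and 2 lower, with a median log2 ratio of -0.25. Cnot1, the scaffold of the CCR4-NOT deadenylase, had egg medians of 69.8 raw CPM in wildtype and 203 in M2 and rose by 1.07 ± 0.23 (log2 ± SE, edgeR adjusted p = 0.0141), with 0.23 and 0.14 without the M2 sums of batches 1 and 2 and 0.0604 without the wildtype sum of batch 1. The poly(A)-specific ribonuclease gene Parn rose by 1.15 ± 0.29 (edgeR adjusted p = 0.0306), with 0.396, 0.136 and 0.0916 under the same omissions, 0.0664 without the wildtype sum of batch 2 0.0591 without the concentrated wildtype eggs and 0.0807 at equal depth. Btg4, which brings CCR4-NOT to maternal mRNA, had medians of 2243 in wildtype and 1261 in M2 and fell by 0.91 ± 0.23 (edgeR adjusted p = 0.0306), with 0.484 without the M2 sum of batch 1 and 0.0585 and 0.0804 without the wildtype sums of batches 1 and 2. Without the 9 concentrated wildtype eggs the log2 ratio of Btg4 in batch 2 changed sign, from -0.66 to 0.27, with an adjusted p of 0.48. The decapping enzyme Dcp2 rose by 0.83 ± 0.23 and its scaffold Edc4 fell by 0.85 ± 0.24 (edgeR adjusted p = 0.0445 and 0.0468), both named after their values were seen. Their adjusted p-values were 0.254 and 0.0525 without the M2 sum of batch 1, 0.434 and 0.425 without that of batch 2 and 0.193 and 0.0822 without the wildtype sum of batch 1. For Dcp2 it was 0.191 at equal depth, and for Edc4 0.118 without the wildtype sum of batch 2 and 0.0797 without the concentrated eggs. Without those eggs 2 genes of the decay list were called higher and 0 lower.

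The cleavage and polyadenylation list held 1 higher and 1 lower gene of 21, with a median log2 ratio of -0.59 in batch 2. That median was 0.15 in batch 1 and -0.17 in the fit. Papolg, a poly(A) polymerase, rose by 1.61 ± 0.34 and Cpsf1, a subunit of the complex that reads the polyadenylation signal, fell by 1.42 ± 0.29 (log2 ± SE, edgeR adjusted p = 0.0122 and 0.00926), with 0.21 and 0.15 without the M2 sum of batch 2. For Cpsf1 it was 0.21 at equal depth. For Papolg it was 0.0545 and 0.0549 without the M2 and the wildtype sum of batch 1. Of 30 transcripts of zygotic genome activation, only Arg2, a mitochondrial arginase, was called, and it rose by 1.32 ± 0.33 (edgeR adjusted p = 0.029). Its adjusted p was 0.0576 and 0.446 without the M2 sums of batches 1 and 2, 0.0525 and 0.105 without the wildtype sums, and 0.0608 without the concentrated wildtype eggs.

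Among the genes named here the smallest adjusted p was that of Dnmt3l, the cofactor of the enzymes that set DNA methylation in the growing oocyte (chromosome 10, 78041947 to 78063622, plus strand). Wildtype eggs spanned 0 to 105 raw CPM with a median of 31.3 and M2 eggs 32.5 to 684 with a median of 249. All M2 eggs lay above the wildtype median and 14 of 16 above the highest wildtype egg. The sums held 47.6 CPM in wildtype and 328 and 337 in M2, a ratio of 7.04 (Poisson 95% interval 6.14 to 8.11). Dnmt3l rose by 2.73 ± 0.24 (log2 ± SE, edgeR adjusted p = 1.4e-05), and the M2 eggs of batch 1, at 186 and 208 raw CPM, lay above the wildtype eggs, at 14.9 to 65.2.

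Dnmt3l was 1 of 3 higher genes among 30 of DNA methylation and histone factors, of which 4 were lower, and the list's median log2 ratio was -0.04. H3f3a, which encodes the replacement histone H3.3, had egg medians of 0 raw CPM in wildtype and 45.7 in M2 and was seen at equal depth in 7 of 24 and 16 of 16 eggs. It rose by 2.23 ± 0.32 (log2 ± SE, edgeR adjusted p = 0.000644), although its copies make the count uncertain, and its adjusted p was 0.06 at equal depth. The maintenance methyltransferase Dnmt1 rose by 0.95 ± 0.23 (edgeR adjusted p = 0.0265). Besides Pcgf1 the lower genes were Uhrf1, which guides DNMT1, the oocyte linker histone H1f8 and the histone demethylase Kdm1b. They fell by 1.09 ± 0.22, 1.49 ± 0.22 and 0.98 ± 0.23 on the log2 scale (edgeR adjusted p = 0.00926, 0.000829 and 0.0205). These 4 genes were named after their values were seen. Without the M2 sums of batches 1 and 2 the adjusted p was 0.157 and 0.324 for Dnmt1, 0.107 and 0.0671 for Uhrf1 and 0.165 and 0.137 for Kdm1b. Without the wildtype sum of batch 1 it was 0.133 for Dnmt1 and 0.0962 for Kdm1b.

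Of 21 genes of calcium handling and egg activation, 3 were called higher and 1 lower. The list's median log2 ratio was 0.68 in batch 2, against 0.03 over all genes. In batch 1 it was -0.11 and in the fit 0.24, against 0 and -0.005 over all genes. Besides Calm2, the regulatory subunit of calcineurin Ppp3r1 rose by 1.20 ± 0.24 (log2 ± SE, edgeR adjusted p = 0.0077; 0.26 without the M2 sum of batch 2). Its M2 sums were 297 CPM on plate 1 and 126.5 on plate 2 against 86.8 in wildtype. Cacna1h, a T-type calcium channel of the egg, fell by 1.12 ± 0.24 (edgeR adjusted p = 0.0124), with 0.22 and 0.0573 without the M2 sums of batches 1 and 2, and its egg medians were 182 raw CPM in wildtype and 160.1 in M2. Calreticulin, Calr, a calcium-binding chaperone named after its values were seen, rose by 1.32 ± 0.32 (edgeR adjusted p = 0.0232), with 0.207 and 0.213 without the M2 sums of batches 1 and 2 and 0.076 without the wildtype sum of batch 2. At equal depth the adjusted p was 0.0845 for Ppp3r1, 0.175 for Cacna1h and 0.194 for Calr.

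Of 34 proteasome genes 30 were not called, 2 were higher and 2 lower, against 3.28% and 1.24% of all genes, and the median log2 ratio was 0.15. Psma7, of the catalytic core, had egg medians of 391.9 raw CPM in wildtype and 202 in M2, with 12 wildtype eggs above the highest M2 egg. It fell by 1.34 ± 0.24 (log2 ± SE, edgeR adjusted p = 0.00445; 0.063 without the M2 sum of batch 2). Psmd12, of the regulatory particle, and Psme3, of an alternative activator, rose by 1.38 ± 0.28 and 1.26 ± 0.26 (edgeR adjusted p = 0.00827 and 0.00973), with 0.088 and 0.34 without the M2 sum of batch 1 and, for Psmd12, 0.145 without that of batch 2. Psmb3, of the core, named after its values were seen, fell by 1.44 ± 0.32 (edgeR adjusted p = 0.0165), with 0.177 and 0.0833 without the M2 sums of batches 1 and 2, 0.052 without the wildtype sum of batch 2 and 0.108 at equal depth.

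Among 49 nuclear-encoded genes of the respiratory chain 4 were higher and 2 lower, with a median log2 ratio of -0.03. Within cytochrome oxidase, Cox5b fell by 1.73 ± 0.33 and Cox6b1 rose by 1.84 ± 0.43 (log2 ± SE, edgeR adjusted p = 0.00662 and 0.0203), with 0.14 and 0.197 without the M2 sum of batch 1. For Cox6b1 it was 0.0739 and 0.0952 without the M2 and the wildtype sum of batch 2. At equal depth the values were 0.18 and 0.0966. Ndufa2, of complex I, rose by 2.53 ± 0.58 (edgeR adjusted p = 0.0205), with 0.13 without either sum of batch 1 and 0.0589 without the concentrated wildtype eggs. Of the others, named after their values were seen, Ndufa5 and Sdhd rose by 3.87 ± 0.90 and 2.00 ± 0.47 and Atp5f1a fell by 1.08 ± 0.25 (edgeR adjusted p = 0.0239, 0.0217 and 0.0216). For Ndufa5 the adjusted p was 0.113 and 0.133 without the M2 and the wildtype sum of batch 1, 0.052 without the concentrated wildtype eggs and 0.164 at equal depth. For Sdhd it was 0.377 without the M2 sum of batch 2, 0.0965 without the wildtype sum of batch 1 and 0.292 at equal depth. For Atp5f1a it was 0.197 and 0.114 without the M2 sums and 0.194 without the wildtype sum of batch 1, where its log2 difference was -0.65. None of 9 mitochondrially encoded genes was called. Their summed level per egg had a median of 1683 raw CPM in wildtype and 585 in M2, and the M2 sums differed between plates, at 2887 CPM on plate 1 and 1059 on plate 2 against 2343 in wildtype. For mt-Co1 the log2 ratio was 0.15 on plate 1 and -1.15 on plate 2, and its log2 difference in the fit was -0.90 ± 0.33 (edgeR adjusted p = 0.164), with 0.014 without the M2 sum of batch 2, 0.0019 at equal depth, 0.0045 without an expression filter and 0.034 with DESeq2.

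Of 66 cytosolic ribosomal protein genes 1 was called, Rplp0, which fell by 1.56 ± 0.28 (log2 ± SE, edgeR adjusted p = 0.00344; 0.058 without the M2 sum of batch 1 and 0.163 at equal depth), and the list's median log2 ratio was 0.34. That median was 0.04 in batch 1 and 0.16 in the fit. Pseudogene copies make the counts of these genes uncertain. In the list of heat shock, antioxidant and p53 genes, 1 of 27 was higher and 1 lower. Txnip, an inhibitor of thioredoxin, rose by 0.89 ± 0.23 and the peroxiredoxin Prdx2 fell by 1.08 ± 0.23 (edgeR adjusted p = 0.0351 and 0.0131), with 0.36 and 0.33 without the M2 sum of batch 1. For Txnip it was 0.26 without the M2 sum of batch 2 0.13 without the wildtype sum of batch 1 and 0.257 at equal depth. Of 24 genes of lipid storage and elongation, Elovl5 and Dgat2 were called lower and 0 higher, with a median of -0.01.

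**Figure D3:**
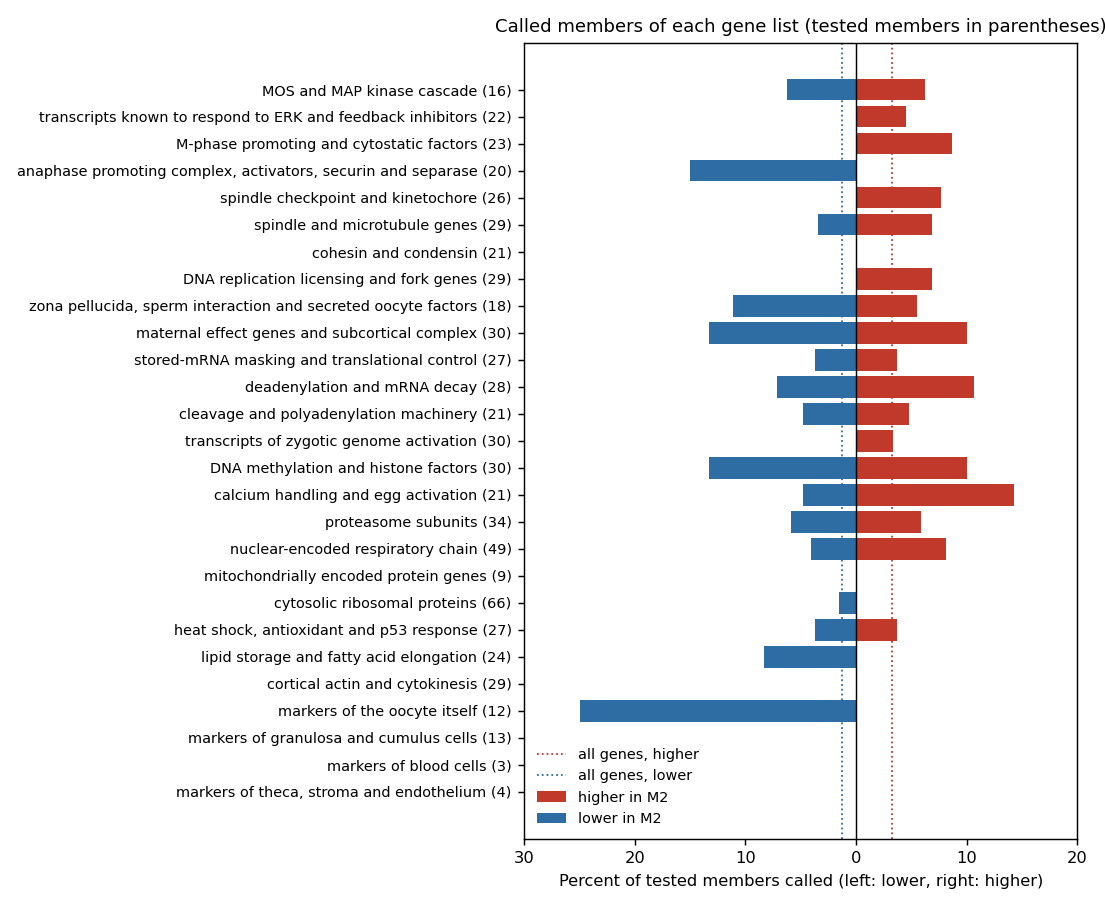
Bars give the percent of tested members of each of 27 gene lists that were called lower (left) or higher (right) in M2, and dotted lines the shares over all 13832 genes, 1.24% and 3.28%. Lists are small, so 1 gene is a large part of a bar, and 3 of 12 oocyte markers were called lower.

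Markers of other ovarian cells were not called. None of 13 tested markers of granulosa and cumulus cells was called, and their summed level per egg had a median of 198 raw CPM in wildtype (77.7 to 558) and 211 in M2 (171 to 406). Serpine2, the most abundant of them, had a log2 difference of -0.47 ± 0.23 in the fit (edgeR adjusted p = 0.309). None of the 3 tested blood cell markers and none of the 4 tested markers of theca, stroma and endothelium was called. Csf1r, a receptor of macrophages, had egg medians of 34.3 raw CPM in wildtype and 36.7 in M2, and Pecam1, of endothelium, 68.3 and 96.9.

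No gene was called between M2 eggs and the other mutant eggs of their plates. M1 and M3 eggs of batch 2 shared plates 1 and 2 with M2 eggs. M1, M2 and M3 eggs were summed within plate 1, plate 2 and batch 1 (9 sums), with these 3 as blocks in edgeR. In batch 1, 1 M1 and 1 M3 egg lay on a plate without M2 eggs. In that fit 0 of 11009 genes (0%) differed between M2 and the mean of M1 and M3 at an adjusted p under 0.05, and 388 did at an unadjusted p under 0.05. Without the M2 sum of batch 1 the count was 0 too. DESeq2 called 2, and edgeR without an expression filter 18. Of the genes called against wildtype, 624 were tested, and 36 of them had an unadjusted p under 0.05. In batch 2 Dnmt3l stood at 372 CPM in M1, 336 in M2 and 389.5 in M3, and Mapk3 at 249.6, 294 and 310.1. The strontium-activated wildtype eggs, on a plate of their own, held 245 CPM of Dnmt3l and 293 of Mapk3. Elovl5 stood at 88.7 in M1, 61.1 in M2, 47.9 in M3 and 18.3 in activated eggs. Pcgf1 stood at 432, 315, 301 and 179 in that order. The wildtype sums of plate 3, for comparison, were 47.6 CPM of Dnmt3l, 72.01 of Mapk3, 268 of Elovl5 and 949.9 of Pcgf1. These values were set side by side without a test.

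The 3′ ends of the called transcripts were then described, because maternal mRNA is controlled through elements near its poly(A) tail. In the last 100 bases of the annotated 3′ UTR, the polyadenylation signal AATAAA or ATTAAA was present in 81.6% of 12429 tested genes with a UTR of that length. It was present in 70.4% of 422 higher genes (Wilson 95% interval 65.9 to 74.5) and in 86.9% of 153 lower genes (80.7 to 91.4). The cytoplasmic polyadenylation element, TTTTAT or TTTTAAT, was present in 19.4% of all, 16.1% of higher (12.9 to 19.9) and 23.5% of lower genes (17.5 to 30.9). A run of 6 adenines, AAAAAA, looked for only after values had been seen, was present in 13.8% of all, 21.8% of higher (18.1 to 25.99) and 6.54% of lower genes (3.59 to 11.6). The median 3′ UTR was 1016 bases long over 13003 tested genes, 953 over 438 higher and 555.5 over 164 lower genes. Only the transcript strand was searched, a run of adenines can overlap the signal, and a match describes these letters and no use of the site.

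**Figure D4:**
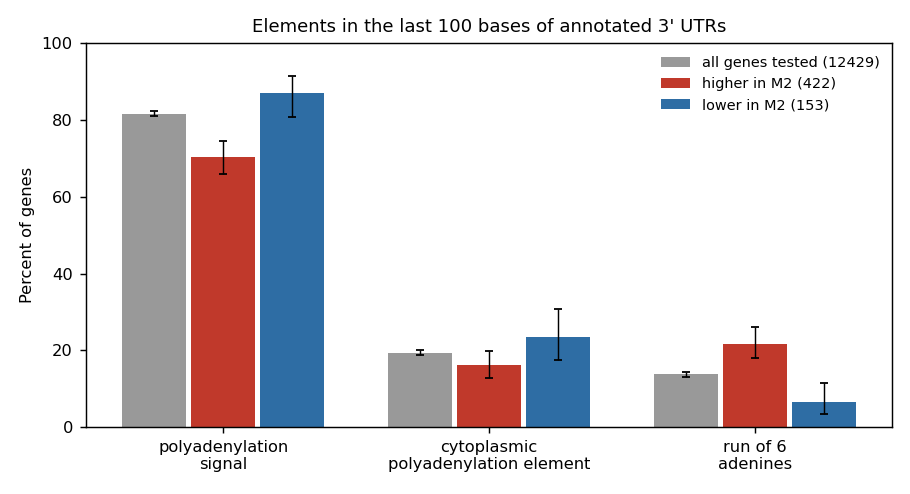
Bars give the percent of genes with each element in the last 100 bases of the annotated 3′ UTR, for all tested genes, genes called higher and genes called lower, with Wilson 95% intervals. The polyadenylation signal lies lower and the run of 6 adenines higher in called higher genes than in called lower genes.

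The last polyadenylation signals of 3 higher and 3 lower genes described above are shown, as examples of where the signal lies and what surrounds it. Sequences are from GENCODE transcripts on GRCm38, written 5′ to 3′ on the transcript strand, with the signal in capitals.
Fxr2, higher, chr11:69653266-69653295, plus strand: atttaaaaagagAATAAAaaaatccaaatg
M6pr, higher, chr6:122317649-122317678, plus strand: aaaaacacaataATTAAAaaacaaaaaaca
Calm2, higher, chr17:87433420-87433449, minus strand: tatttgttttccAATAAAaaaaattacaat
Mos, lower, chr4:3870661-3870690, minus strand: atatttttaggaAATAAAgttaccacgaac
Gdf9, lower, chr11:53437870-53437899, plus strand: atgtgacggaagAATAAActgttgatggca
Elovl5, lower, chr9:77984484-77984513, plus strand: taaacattaatcATTAAAacctttttgatt
These 6 genes were picked for display after their values were known, and the 3 higher ones are not typical. Of the 12 genes with the largest rises, 3 have a signal followed directly by at least 3 adenines, 5 have a signal that is not, among them Egfr and Kremen1, and 4 have none in the window. Over all named genes it was 5 of 22 higher genes with a signal and 0 of 24 lower ones, a count made after the sequences were seen. The share over all tested genes was not counted, so these counts have no background to be set against. Neither Mapk3 nor Dnmt3l holds AATAAA or ATTAAA in the last 100 bases of its annotated 3′ UTR, of 612 and 273 bases.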

How the data were processed

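Counts per gene for 21564 symbols in 107 eggs were used as deposited. Per the submitters' processing notes, the authors aligned reads with STAR and counted them with HTSeq. The builds these notes name are GRCm38 and mm10. Their versions, the gene models and any strand option were not given in the sources used here, and overlapping and antisense genes cannot be told apart. The deposited counts were whole numbers without normalization. Columns of the table that could be mapped to no sample numbered 0.

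Counts were summed per group and batch (2 M2 eggs and 5 wildtype eggs in batch 1, with sums of 16138121 and 36209306 counts, and 10431925 and 5436993 in batch 2). The 9 sums were fitted with terms for group and for batch in edgeR 4.0.16 under R 4.3.3, with TMM scaling, a minimum count of 10 in its expression filter, robust quasi-likelihood F tests and Benjamini-Hochberg adjustment over 13832 genes. Standard errors came from the F statistic, as the log2 fold over its root. Batch 1 has no plate shared by M2 and wildtype eggs. Plates of batch 2 were taken from the library names. Log2 ratios within batch 2 used a prior count of 2. The egg numbers pair no samples. The fit was tested on simulated data with known changes. Intervals on sums and ratios are exact Poisson intervals, and all intervals cover counting error only, since reads carried no molecular identifiers.

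The lists (697 of 700 entries found), members and tests were chosen with earlier results of these data known. Genes were named by a rule. From the called genes with a level of 4 log2 CPM or more, without predicted genes, clones and pseudogenes, it took the 12 highest and 12 lowest by the smaller of both plate folds. It added Mos and, per list, the 3 called members of lowest p, or the most abundant one where none was called. GENCODE M21 gave positions and 3′ UTRs of the principal transcript, for 94.0% of tested genes. The result was recomputed with DESeq2 1.42.0, with voom of limma 3.58.1, with RLE or upper quartile scaling, with no filter, at equal depth (60000 counts per egg), with no batch term, in batch 2 alone, and without mitochondrial genes, activated eggs, the concentrated wildtype eggs, M2 egg 14 or each M2 or wildtype sum. One 3′ end sequence is not reported here.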

Additional observations from a re-analysis of the deposited data

Results flagged for a closer look

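Egg 4 of the M2 eggs on plate 1 had 30.13% of its counts in its 50 most abundant genes, farther from the other 7 eggs of that plate than Dixon's test allows. By the same test egg 14 of the M2 eggs on plate 2 stood apart with 2518 genes at 60000 counts. In batch 1, wildtype egg 1 stood apart with a total of 2.609e+06 counts. Chance would give such a result in about 1 in 20 single tests, and 12 combinations of group and measure were looked at.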

How the results depend on the processing

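The count of 626 called genes was 1111 with DESeq2 (631 higher, 480 lower), 1061 without the expression filter, and 0 both with batch 2 alone and with no batch term (977 and 1152 genes at an unadjusted p under 0.05). With 1 sum left out it ranged from 161 to 608. The split moved from 72.5% higher to 56.8% with DESeq2, 61.9% with RLE scaling (365 and 225), 61.2% at equal depth (365 and 231), 64.3% without the wildtype sum of batch 1 and 90.1% without the M2 sum of batch 1. At equal depth 322 of 611 called genes were called again. Without the 9 concentrated wildtype eggs 444 were called, 435 of them the same genes, and without M2 egg 14 (chosen after the data were seen) 702. Of 67 named called genes, 15 remained called in every fit but the 2 that called none.

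The 2202 genes past 2-fold became 4291 at 1.5-fold, 948 at 3-fold, 4042 on plate 1 alone, 4241 on plate 2 alone and 1164 at equal depth. Against M1 and M3, DESeq2 called 2 and the fit without a filter 18; left-out sums gave 0. Without M2 egg 14, 1 gene did not overlap. In the last 200 bases the cytoplasmic element was in 24.43% of higher and 33.33% of lower genes, against 29.59% of all tested genes. Signs turned for Pecam1 (fit: 0.10 in batch 2 alone and -0.76 to 0.13 with 1 sum left out, above 0 only without the wildtype sum of batch 1; ratio: -0.10 on plate 1, -0.093 at equal depth, -0.063 without M2 egg 14) and mt-Co1 (0.15 on plate 1, 0.80 without the concentrated eggs). They also turned for Btg4 (0.27 without those eggs). As a mean over eggs, where the median over all genes was 0.38, they turned for Mos (0.76), Relt (0.54), Kdm4b (1.19), Dgat2 (0.46) and Csf1r (0.40). The cause was not tested. Of the other values of named genes in the fit, 931 kept direction and call, 301 lost the call and 6 gained it.

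No paired analysis was possible because M2 eggs are numbered 3 to 18 and wildtype eggs 28 to 51, which share no number. Wildtype depth limits genes of few counts, where ratios have wide intervals, and no result here separates genotype from plate.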
